A study of Mus musculus with 6 samples.

Results

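The matrix metalloproteinases (MMPs), the ADAMTS proteases and their tissue inhibitors (TIMPs) were taken by symbol from the 6 deposited count tables, without Mmp9 and Mmp20. The symbol rule found 44 genes among 23420 symbols, namely 21 MMP, 19 ADAMTS and 4 Timp genes. RNA came from tooth germs of C57BL/6 mouse embryos at E15.5, with 3 libraries from wild-type embryos and 3 from embryos of the Smad7-/- genotype. The SMAD7 protein dampens signals from TGF-beta and BMP receptors, and these pathways control many matrix genes. The libraries compare tooth germs with and without an intact Smad7 gene. The labels do not say how the Smad7 allele was made, whether animals were pooled, or whether the libraries of a group came from separate animals, so p-values measure the spread between these samples, which may be technical.

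MMPs are zinc-dependent enzymes, made as inactive precursors, that cut collagens and other proteins outside the cell. The secreted collagenases open fibrillar collagen, and the membrane-type MMPs work at the cell surface, where Mmp14 activates the precursor of the gelatinase Mmp2 with the help of Timp2. ADAMTS proteases carry thrombospondin repeats that hold them in the matrix; some trim the N-terminal ends of procollagens and others cut versican, aggrecan and related proteoglycans. TIMPs block the active site of these enzymes, and Timp3 stands apart by staying bound to the matrix. In the forming tooth such enzymes act on the basement membrane between epithelium and mesenchyme and on the matrix of the surrounding jaw bone.

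The libraries held 37591888 to 56575476 counts. Smad7 counts were 1097, 934 and 859 in wild-type libraries 1, 2 and 3 and 80, 62 and 41 in Smad7-/- libraries 1, 2 and 3, so each library matched its genotype label (log2 -3.80 ± 0.33 SE; edgeR adjusted p = 0.00749). Wild-type library 1 and Smad7-/- libraries 1 and 2 (the first set) lay apart from the other 3 libraries (the second set) on the first principal component of the tested genes that are no member, which held 33.5% of the variance. This separation crosses genotype but is not balanced over it, and values within each set stand beside the results below. Wild-type library 1 is the only wild-type library of the first set, and Smad7-/- library 3 the only Smad7-/- library of the second. Each value within a set therefore rests on 1 library in 1 of its groups. Xist stood at 195 CPM (counts in proportion to the library total, after TMM scaling) in wild-type library 1 and at 365 CPM in Smad7-/- library 3, and the other 4 had at most 0.202 CPM.

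A few members supplied most of the transcripts of these families once length was taken into account. Per kilobase of exon, the collagenase gene Mmp13 had the highest mean level, at 111 ± 37.7 CPM per kb (SD, n = 6 libraries). The membrane-type gene Mmp14 followed at 93.4 ± 4.15 CPM per kb, the inhibitor gene Timp2 at 84.7 ± 9.75 and the gelatinase gene Mmp2 at 79.0 ± 10.7. The ranges of neighbours in this order overlapped across libraries. These 4 genes made up 69.5% of the summed per-kb level of the 44 members. Timp1, at 31.7 ± 6.47 CPM per kb, Adamts17, at 25.1 ± 1.81, and Timp3, at 23.7 ± 3.14, formed the next step. Adamts2, which removes the N-terminal propeptide of fibrillar procollagens, stood at 11.4 ± 1.25 CPM per kb, Adamts9 at 8.82 ± 1.11 and the stromelysin-type gene Mmp11 at 8.80 ± 1.70. The top 10 genes held 90.2% of the summed level. The order near the top depends on the gene model: with the longest annotated transcript as the length, Mmp14 stood at 172 CPM per kb and Mmp13 at 111.

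**Figure D1:**
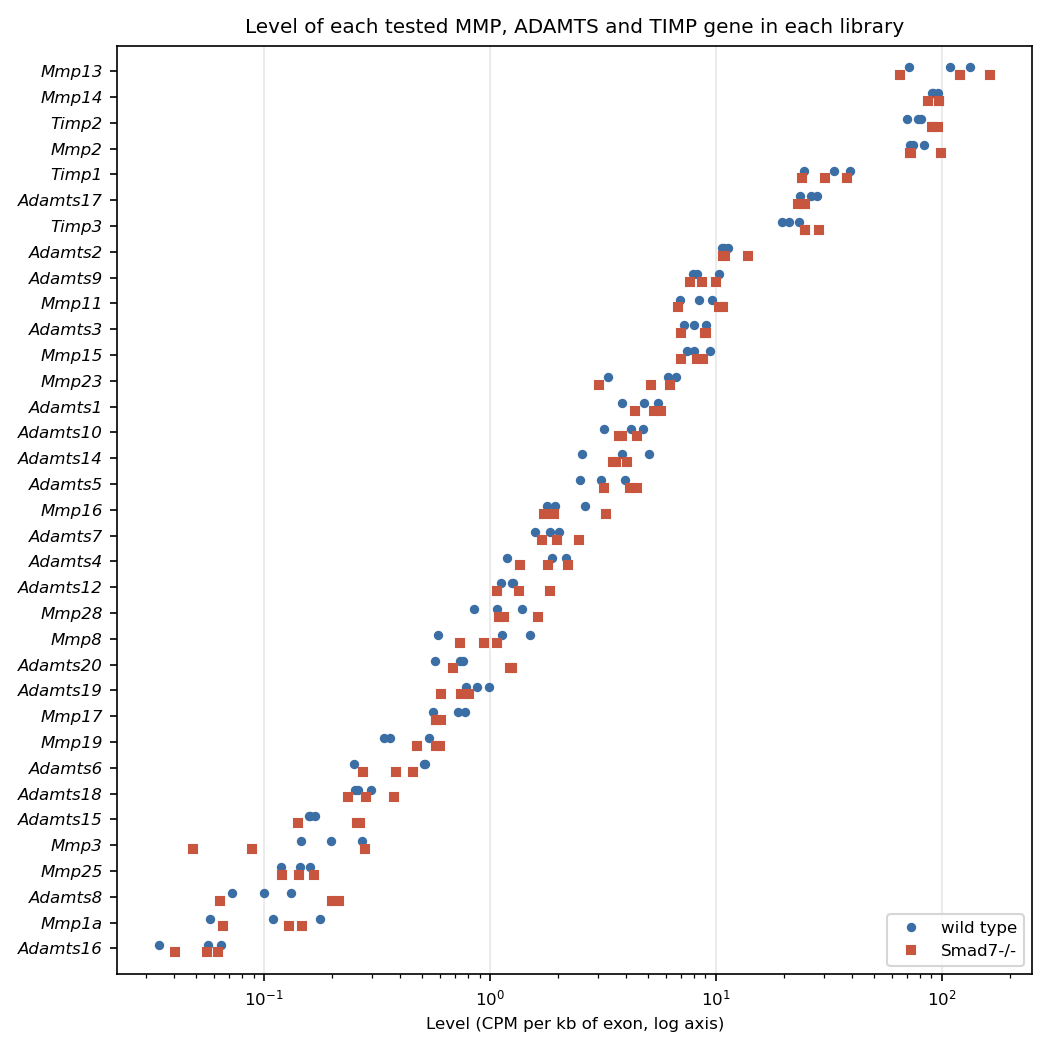
Level of the 35 tested MMP, ADAMTS and TIMP genes in each library, in CPM per kb of exon on a log axis, with circles for the 3 wild-type and squares for the 3 Smad7-/- libraries. The genes span from under 0.1 to over 100 CPM per kb, and for nearly all of them the symbols of the groups intermingle.

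The most abundant member by raw CPM, Mmp14 (chromosome 14, 54431612 to 54445364, forward strand, mm10), was also the steadiest of the abundant ones. It had 573, 547 and 539.5 CPM in wild-type libraries 1, 2 and 3 and 519.8, 579 and 579.7 CPM in Smad7-/- libraries 1, 2 and 3. The groups overlapped, and the log2 fold change (Smad7-/- minus wild type) was 0.02 ± 0.09 SE, with a 95% interval from -0.19 to 0.22. Its partner Mmp2 (chromosome 8, 92827291 to 92853420) had 251, 244 and 280.2 CPM in wild type and 243, 246 and 335 in Smad7-/-. Smad7-/- library 3 was the high one, and without it the log2 fold change went from 0.09 to -0.081. Mmp15, a further membrane-type gene, averaged 44.9 ± 5.52 CPM in wild type against 43.1 ± 4.90 in Smad7-/- (SD, n = 3 per group), and Mmp16, which is related to it, at 18.4 ± 3.97 and 19.98 ± 7.15. The GPI-anchored members Mmp17 and Mmp25 were low, at 4.53 ± 0.751 and 0.746 ± 0.111 CPM in wild type.

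Mmp13 (chromosome 9, 7272514 to 7283331, forward strand), a collagenase of osteoblasts and hypertrophic cartilage, varied most among the abundant members, and it varied across rather than between the genotypes. It had 192, 357 and 292 CPM in wild-type libraries 1, 2 and 3 and 174, 322 and 439 CPM in Smad7-/- libraries 1, 2 and 3. Library 1 was the lowest in each group, and the groups overlapped (log2 0.15 ± 0.36 SE; 95% interval -0.70 to 1.01). Its SD of log2 CPM within groups was 0.58, above 99.8% of the 2350 tested genes averaging 100 CPM or more, whose median was 0.12; Mmp14 stood at 0.07. Without wild-type library 1 the log2 fold change was -0.06 and without Smad7-/- library 3 it was -0.18. The summed level of markers of osteoblasts and odontoblasts, the cells that lay down bone and dentin, was also lowest in library 1 of each group. This sum over 9 genes was 2995, 4542 and 5354 CPM in wild type and 3081, 3963 and 4255 CPM in Smad7-/-, most of it from Dspp, the dentin protein gene. Singly, 5 of the 9 (Bglap, Phex, Dspp, Alpl and Spp1) were lowest in library 1 of both groups, while Sp7 was lowest in library 2 of both and Ibsp was highest in wild-type library 1 among the wild-type libraries. None of these 9 was at 0, and their part in the Mmp13 spread was not tested. Cartilage markers were low, with sums of 84.4 to 94.3 CPM in wild type and 86.5 to 97.1 in Smad7-/- over 8 of 9 genes in the tables, and Col10a1, which marks hypertrophic cartilage, at 0.174 to 0.460 CPM.

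The bases just upstream of Mmp13 and Mmp14 are shown because these genes lead the families in level and stand at opposite ends of the spread among the MMPs averaging 100 CPM or more. They are RefSeq sequences of build GRCm38.p6, written 5′ to 3′ on the gene's strand and ending at the base before the RefSeq start. Capitals mark matches to the letters TGANTCA (the AP-1 motif), TGTGGT (the RUNX motif) or CAGAC (a SMAD box), searched on both strands. For Mmp14 the RefSeq start lies slightly upstream of the GENCODE start given above, 54431612. The Mmp13 bases are chr9:7272264-7272513 and the Mmp14 bases are chr14:54431348-54431597.
Mmp13: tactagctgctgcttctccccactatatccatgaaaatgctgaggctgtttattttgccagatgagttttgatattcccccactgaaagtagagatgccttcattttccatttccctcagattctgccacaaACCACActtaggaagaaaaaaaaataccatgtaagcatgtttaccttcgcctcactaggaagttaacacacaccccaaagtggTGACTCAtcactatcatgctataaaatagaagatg
Mmp14: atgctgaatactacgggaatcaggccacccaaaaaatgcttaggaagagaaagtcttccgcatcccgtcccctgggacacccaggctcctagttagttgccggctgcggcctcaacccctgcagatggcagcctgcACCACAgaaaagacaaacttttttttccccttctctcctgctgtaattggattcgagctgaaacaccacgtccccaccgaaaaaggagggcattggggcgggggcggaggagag

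The Mmp13 window holds an AP-1 match that begins 35 bases before the start and a RUNX match on the other strand that begins 118 bases before it. The Mmp14 window holds a RUNX match at 114 bases and none to the other motifs. Windows of 250 bases were found for 31 of the 44 members. AP-1 letters occurred in 6 of these 31 windows (19.4%) and in 6.75% of the 32851 windows of all genes, RUNX letters in 16.1% and 14% and SMAD letters in 41.9% and 42.2%. The windows with AP-1 letters belong to Mmp1a, Mmp1b, Mmp3, Mmp7, Mmp10 and Mmp13, which lie in 1 cluster. A match describes letters and is no evidence of binding here.

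These 6 genes are part of a run of 9 members on chromosome 9, from 7272514 to 7699585, in which Mmp13 alone was abundant. The mean of the next highest, Mmp8, the collagenase of neutrophils, was 2.42 CPM over the 6 libraries. Mmp8 had 1.42, 2.75 and 3.64 CPM in wild-type libraries 1, 2 and 3 and 1.78, 2.60 and 2.29 in Smad7-/-, lowest in library 1 of each group. Neutrophil markers summed over 8 genes to 16.7 to 49.3 CPM in wild type and 6.60 to 58.4 in Smad7-/-, and their part was not tested. Mmp3, a stromelysin gene, and Mmp1a, of the collagenase group, stood at 0.369 ± 0.113 and 0.232 ± 0.120 CPM in wild type. GENCODE lists Mmp1a as a polymorphic pseudogene. Mmp1b, a close copy of Mmp1a between which reads could be split, had 0 counts in each library, which allows up to 0.0521 to 0.0799 CPM by counting error alone (3 counts per library). Mmp7, Mmp10, Mmp12 and Mmp27 had at most 14 counts in any library and were not tested. Mmp12, the macrophage elastase, had 0.0975, 0.0404 and 0.0838 CPM in wild-type libraries 1, 2 and 3 and 0.106, 0.184 and 0.104 in Smad7-/-, which did not overlap but rest on at most 8 counts a library. Elsewhere in the genome Mmp21, Mmp24, Adamts13 and Timp4 were equally low, with at most 13 counts. The 9 untested members are therefore those with little or no RNA in these tooth germs at this depth.

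No member passed the test between genotypes. Of the 35 tested members edgeR called 0 at an adjusted p under 0.05, where it called 4 of 15284 genes in all (0.0262%). DESeq2 called 0 of the 40 members to which it gave an adjusted p (0.351% of all genes called) and limma-voom 0 of 35 (0.0262%). At an unadjusted p under 0.05 edgeR had 3 members, all higher in Smad7-/-, and 0 lower, against 3.26% of all tested genes on the higher side, 1.88% on the lower and 5.14% on either. DESeq2 and limma-voom also had 3 each. Without wild-type library 2 this count was 0, and without Smad7-/- library 1, or with the set as a covariate, it was 5. The sign was positive for 23 members and negative for 12, with a median log2 fold change of 0.05, where 49.1% of all tested genes were positive and their median was -0.0028. Between the libraries of the first set the median was 0.22, and between those of the second it was 0.14. The first of these rests on wild-type library 1 alone for wild type, the second on Smad7-/- library 3 alone for Smad7-/-. Without Smad7-/- library 3 the median of the members was -0.013. The median SD within groups was 0.28 on the log2 scale for the tested members, against 0.17 over all tested genes. This comparison and the interval count below are not matched for level. Tested genes averaging 100 CPM or more had a median of 0.12. Among those genes the SD of Mmp14 exceeded that of 15.7%, Timp2 20.8%, Adamts17 32.2% and Timp3 50.3%. Adamts2 exceeded 68.6%, Adamts9 87.4%, Mmp2 87.5% and Mmp13 99.8%. The 95% interval of the fold change lay within 1.5-fold in either direction for 15 members, against 64.4% of all tested genes, and for the others the interval did not exclude a difference of that size in at least 1 direction.

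**Figure D2:**
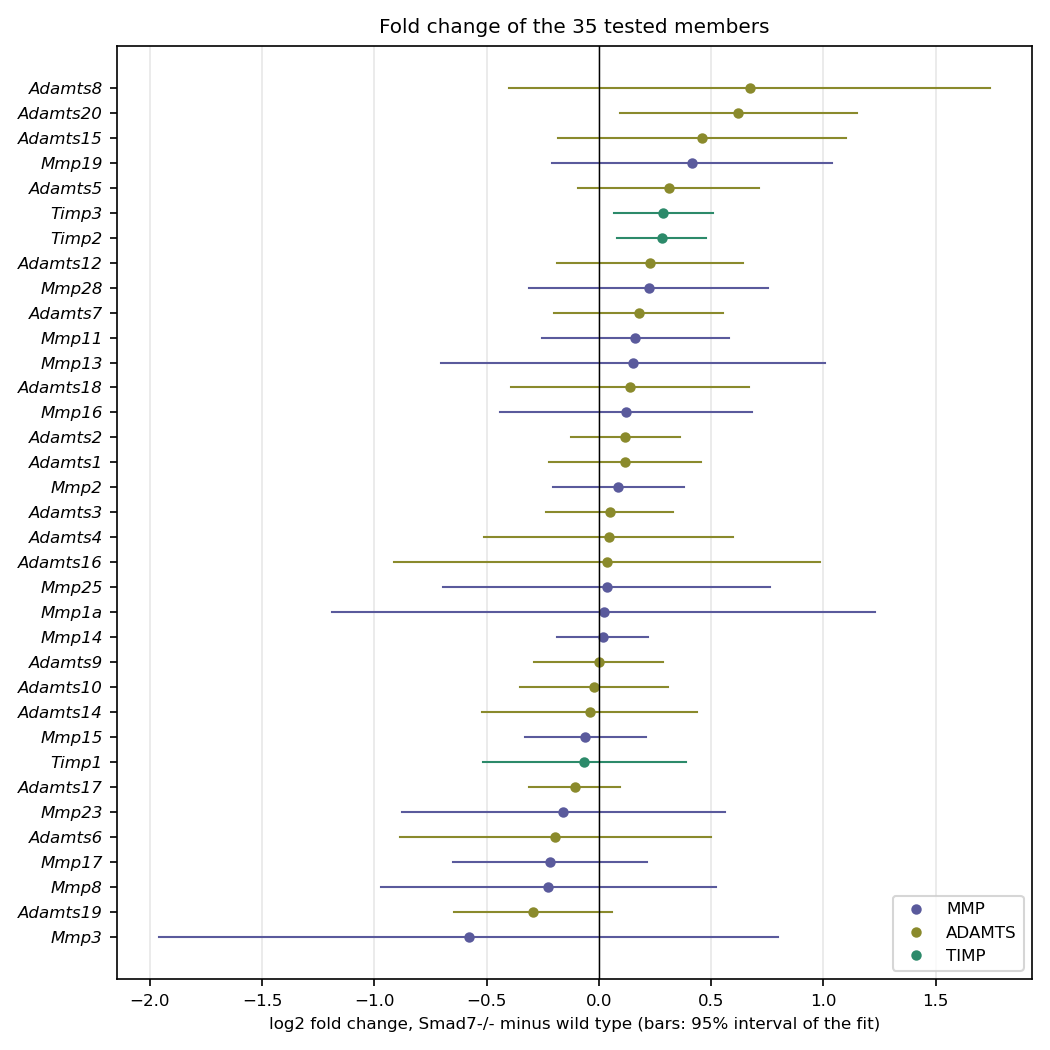
Log2 fold change of the 35 tested members (Smad7-/- minus wild type, points) with the 95% interval of the edgeR fit (bars), coloured by family. The intervals of Timp2, Timp3 and Adamts20 lie above 0 before adjustment, while most cross 0 and those of low genes such as Mmp3 and Adamts8 are wide.

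The inhibitor genes Timp2 and Timp3 stood higher in every Smad7-/- library than in any wild-type library, without passing the adjusted test. Timp2 (chromosome 11, 118301069 to 118355740, reverse strand) had 306, 274 and 314 CPM in wild-type libraries 1, 2 and 3 and 358, 374 and 353 CPM in Smad7-/- libraries 1, 2 and 3. The groups did not overlap, and the means were 298 ± 21.2 and 362 ± 10.6 CPM (log2 0.28 ± 0.09 SE; edgeR adjusted p = 0.766). Timp3 (chromosome 10, 86300372 to 86349506, forward strand) had 189.9, 172 and 160.4 CPM in wild type and 202, 233 and 203 CPM in Smad7-/-. These groups did not overlap either, with means of 174 ± 14.9 and 212 ± 17.5 CPM (log2 0.29 ± 0.10 SE; edgeR adjusted p = 0.827). In the first set wild-type library 1 was the only one of its genotype, and in the second Smad7-/- library 3 was. Within the first and second sets of libraries the log2 difference was 0.26 and 0.27 for Timp2 and 0.19 and 0.29 for Timp3. Over all alternatives it ran from 0.22 to 0.32 for Timp2 and from 0.22 to 0.35 for Timp3, with adjusted p from 0.340 to 1.00 and from 0.423 to 1.00. Group ranges failed to overlap with Smad7-/- higher for 4.97% of all tested genes, against 2 of 35 members, with Smad7-/- lower for 3.91% against 0 members, and in either direction for 8.88%.

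Timp1 (chromosome X, 20870166 to 20874735), an inhibitor often made by activated stromal cells, did not share that pattern. It had 21.9, 29.6 and 34.8 CPM in wild-type libraries 1, 2 and 3 and 21.5, 34.0 and 27.0 CPM in Smad7-/-. The groups overlapped, with library 1 lowest in each (log2 -0.06 ± 0.20 SE; 95% interval -0.52 to 0.39). Timp3 shares 1733 exonic bases with Syn3, a synaptic vesicle gene on the opposite strand, and the library kit does not record strand, so reads there could be split. Syn3 had 5.61 ± 0.915 CPM in wild type and 5.40 ± 0.598 in Smad7-/-. Mmp11, Mmp19, Mmp28, Adamts4 and Adamts7 also share exonic bases with a gene on the opposite strand, over 122 to 1001 bases, and the same limit holds for them. Adamts8 and Adamts9 share 489 and 1805 exonic bases with Gm29724 and A730049H05Rik on the opposite strand. These partners are not among the symbols counted here, so their reads could be counted with Adamts8 and Adamts9. The Timp3 bases before its first annotated exon (chr10:86300162-86300371) are shown because it is an inhibitor gene whose groups did not overlap, and they hold none of the 3 motifs. The Timp2 window lies inside an annotated exon and is not printed.
Timp3: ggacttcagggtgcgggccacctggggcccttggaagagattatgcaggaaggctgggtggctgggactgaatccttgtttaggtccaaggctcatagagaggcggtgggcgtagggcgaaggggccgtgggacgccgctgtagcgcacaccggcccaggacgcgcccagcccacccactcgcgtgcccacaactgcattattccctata

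**Figure D3:**
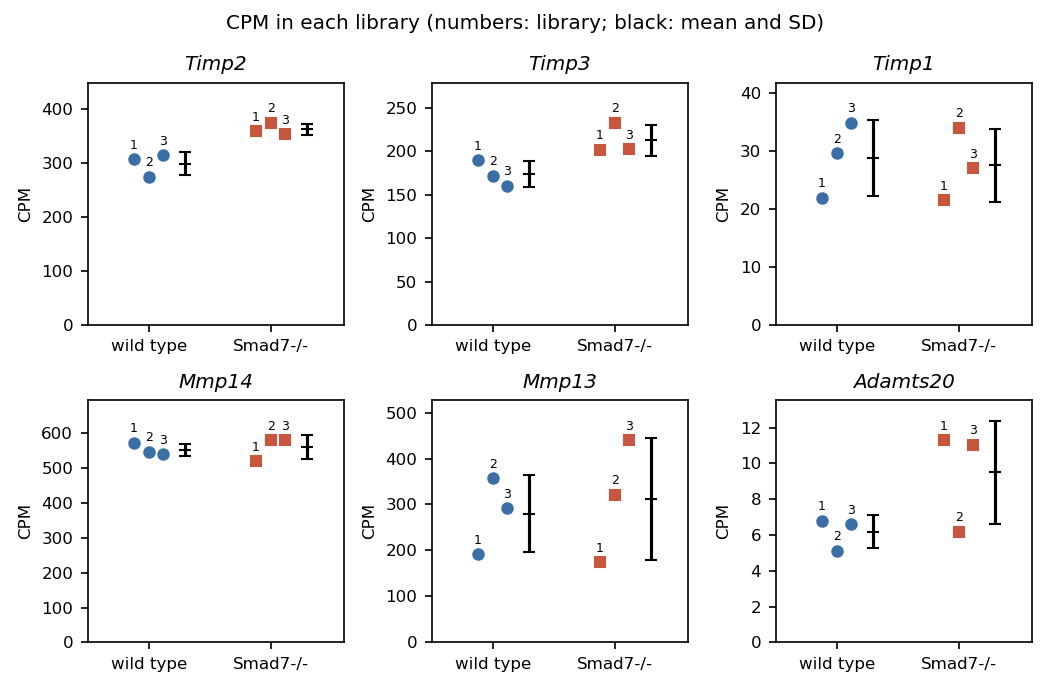
CPM of 6 members in each library, with numbers giving the library, and the mean and SD of each group in black. Timp2 and Timp3 are higher in all 3 Smad7-/- libraries, Mmp14 is level, Timp1 and Mmp13 have their lowest value in library 1 of each group, and Adamts20 is high in Smad7-/- libraries 1 and 3 only.

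Sums of the markers of several cell types differed between the same groups as Timp2 and Timp3. Dental mesenchyme markers, all transcription factor genes, summed to 183 to 239 CPM in wild type and 289 to 308 in Smad7-/-, with 9 of 9 genes positive. Macrophage markers summed to 96.0 to 136 and 169 to 180.4 CPM (8 of 8 tested genes positive) and osteoclast markers to 397 to 584 and 859.7 to 926 CPM (9 of 9). Most of the mesenchyme sum came from Prrx1 and Barx1 and most of the osteoclast sum from Ctsk and Acp5. Singly, 7 mesenchyme, 6 macrophage and 7 osteoclast genes were higher without overlap, against 4.97% of all tested genes. The osteoclast gene Calcr was high in Smad7-/- library 1 only, at 6.41 CPM against 0.690 and 0.937 in Smad7-/- libraries 2 and 3. Endothelial markers overlapped, at 250.3 to 381 and 351 to 396 CPM (8 of 8), as did smooth muscle and pericyte markers, at 334 to 415 and 399 to 533 CPM (7 of 7). Dental epithelium markers summed to 9368 to 10334 and 7998 to 9713 CPM, with 2 of 9 positive. No marker of these 6 lists was at 0 in all libraries, edgeR called none of them, and their part in the Timp2 and Timp3 values was not tested. Red blood cell markers were lower in Smad7-/- without overlap, at 35.4 to 50.7 CPM in wild type and 16.8 to 28.7 in Smad7-/-. Of the 3 tested genes of that list 0 were positive, and Hba-a1, Hba-a2 and Hbb-b1 were at 0 in all libraries. Sums of skeletal muscle, neuron and Schwann cell markers overlapped between the groups. The part of these further lists was not tested either. In RNA of whole tooth germs, more cells of a type and more RNA per cell cannot be told apart.

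Among the ADAMTS genes that cut hyalectans, the proteoglycans that bind hyaluronan, Adamts20 had the lowest p. Adamts20 (chromosome 15, 94270163 to 94465418, reverse strand), which cleaves versican and is known for its role in melanoblast survival, had 6.81, 5.12 and 6.62 CPM in wild-type libraries 1, 2 and 3. In Smad7-/- libraries 1, 2 and 3 it had 11.29, 6.19 and 11.04 CPM. Libraries 1 and 3 were high while library 2 lay within the wild-type range, so the groups overlapped. The means were 6.18 ± 0.927 and 9.50 ± 2.88 CPM (log2 0.62 ± 0.24 SE; edgeR adjusted p = 0.864, and from 0.332 to 1.00 over the alternatives). The log2 difference was 0.29 within the first set and 0.92 within the second. The 250 bases before its RefSeq start (chr15:94404351-94404600, reverse strand) are shown as those of the other member under an unadjusted p of 0.05, and they hold 1 SMAD box, 202 bases before the start. This RefSeq start lies inside the GENCODE span of the gene given above, whose outermost start is at 94465418.
Adamts20: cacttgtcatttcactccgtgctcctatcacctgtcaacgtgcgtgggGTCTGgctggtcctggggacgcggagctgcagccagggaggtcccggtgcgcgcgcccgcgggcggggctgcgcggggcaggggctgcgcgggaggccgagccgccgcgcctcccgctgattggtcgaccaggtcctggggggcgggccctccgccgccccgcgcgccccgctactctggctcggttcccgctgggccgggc

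Of the 7 hyalectan-cleaving members, all tested, 6 had a positive sign and the median log2 was 0.31, with no call. Adamts9, by far the most abundant of them, had 119, 124 and 155 CPM in wild type and 130.3, 116 and 151 in Smad7-/-, and its groups coincided (log2 0.00 ± 0.13 SE). It shares 1805 exonic bases with A730049H05Rik on the opposite strand, which is not among the symbols counted here. Adamts5, an aggrecanase, had 26.9, 33.5 and 42.7 CPM in wild type and 34.5, 45.15 and 48.2 in Smad7-/- (log2 0.31 ± 0.18 SE). Adamts1 stood at 25.2 ± 4.55 and 27.3 ± 3.61 CPM and Adamts4, the other well-known aggrecanase, at 8.40 ± 2.44 and 8.63 ± 2.07. Adamts15 and Adamts8 were low, at 1.68 ± 0.0540 and 0.466 ± 0.138 CPM in wild type. Their common substrate versican, Vcan, stood at a log2 of -0.02 ± 0.13 SE, and aggrecan, Acan, at 0.70 ± 0.34.

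The procollagen N-proteinase genes did not differ by more than their spread. Adamts2 had 99.6, 101.4 and 105 CPM in wild-type libraries 1, 2 and 3 and 102, 100.1 and 129.8 in Smad7-/-, with library 3 the high one (log2 0.12 ± 0.11 SE). Adamts3, which also processes the lymphatic growth factor VEGF-C, stood at 43.9 ± 5.03 and 45.4 ± 6.44 CPM, and Adamts14 at 19.9 ± 6.43 and 19.3 ± 1.44. All 3 had intervals within 1.5-fold. Among the remaining ADAMTS genes 4 were positive and 4 negative. Adamts17, a fibrillin-associated protease, was the most abundant ADAMTS gene in these tooth germs, with 183, 217 and 205.5 CPM in wild type and 190.2, 192 and 179.8 in Smad7-/- (log2 -0.11 ± 0.09 SE). The fibrillin-binding Adamts10 stood at 33.5 ± 6.62 and 33.0 ± 3.28 CPM. Adamts12 and Adamts7, which cut cartilage oligomeric matrix protein, averaged 13.2 ± 0.847 and 11.4 ± 1.41 CPM in wild type against 15.47 ± 4.24 and 12.9 ± 2.49 in Smad7-/-. Adamts19 had the lowest p on the negative side, with 10.98, 13.9 and 12.3 CPM in wild type and 10.5, 8.51 and 11.4 in Smad7-/- (log2 -0.29 ± 0.16 SE; edgeR adjusted p = 0.999). Its groups overlapped through wild-type library 1 and Smad7-/- library 3. Adamts6, Adamts18 and Adamts16 stood at 3.31 ± 1.18, 2.74 ± 0.245 and 0.353 ± 0.106 CPM in wild type.

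The remaining MMPs were of middle or low level. Mmp11 had 19.2, 23.4 and 26.6 CPM in wild-type libraries 1, 2 and 3 and 28.6, 18.9 and 29.99 in Smad7-/- (log2 0.16 ± 0.19 SE). Mmp23, whose product is a membrane protein with a potassium channel-blocking domain, was the most abundant of the unclassified members. It had 7.76, 14.4 and 15.6 CPM in wild type and 7.11, 14.6 and 12.1 in Smad7-/-, so that library 1 was again lowest in each group (log2 -0.16 ± 0.32 SE). Mmp28, an epithelial MMP also called epilysin, stood at 4.28 ± 1.04 CPM in wild type, and Mmp19 at 1.45 ± 0.382, against 1.94 ± 0.233 in Smad7-/-. Their log2 differences were 0.22 ± 0.24 and 0.42 ± 0.28 SE.

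The members also differed between libraries of 1 genotype. Wild-type library 1 had the lowest value for 12 of the 35 tested members and the highest for 1, where it was lowest for 16% of the 15249 other tested genes. Smad7-/- library 3 had the highest value for 14 members, where it was highest for 16% of the other genes. Wild-type library 1 and Smad7-/- library 3 are also the libraries with Xist at 195 and 365 CPM, from which sex was read. The part of sex in this order of libraries was not tested. The summed per-kb level of the 21 MMPs was 268, 325 and 314 CPM per kb in wild-type libraries 1, 2 and 3 and 252, 318 and 391 in Smad7-/-. The ADAMTS sum was 67.8, 78.5 and 84.6 in wild type and 76.4, 73.9 and 84.1 in Smad7-/-. Both sums overlapped between the groups. The TIMP sum was 127, 125 and 139.5 CPM per kb in wild type and 141, 163 and 146 in Smad7-/-. These did not overlap, though wild-type library 3 and Smad7-/- library 1 lay close. Timp2 made up the largest part of the sum, at a mean of 84.7 CPM per kb, before Timp1 at 31.7 and Timp3 at 23.7. As a share of the 3 families the TIMPs held 27.4%, 23.6% and 25.9% in wild type and 30.03%, 29.3% and 23.5% in Smad7-/-, which overlapped.

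**Figure D4:**
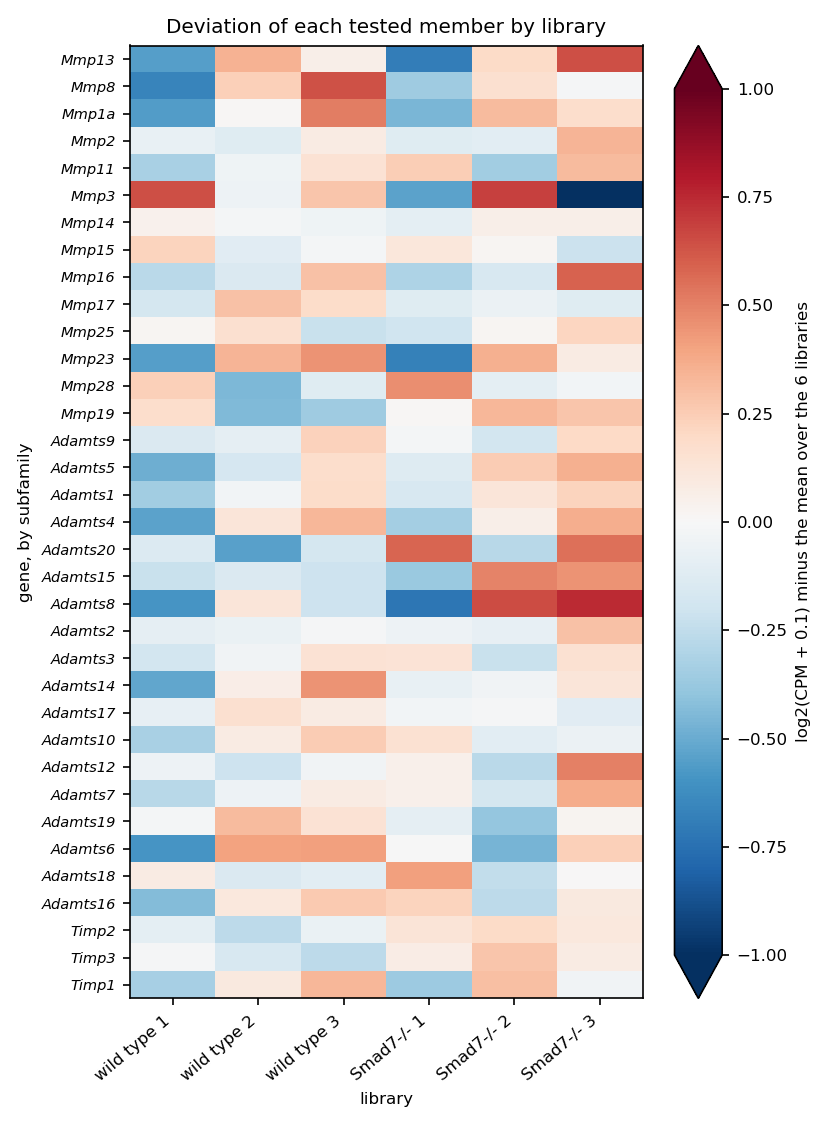
Heat map of log2(CPM + 0.1) minus the mean over the 6 libraries for each tested member (rows, by subfamily), with libraries in columns and colours held at 1 in either direction. Wild-type library 1 is blue for many members of several subfamilies and Smad7-/- library 3 is red for many, while Timp2 and Timp3 are lower in the wild-type columns.

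Other genes of extracellular proteolysis were read from 7 lists of 66 genes, of which 63 were tested. edgeR called 0, limma-voom 0 and DESeq2 1, where edgeR and limma-voom called 0.0262% of all genes each and DESeq2 0.351%. At an unadjusted p under 0.05 edgeR had 6 higher and 1 lower, against 3.26% and 1.88% of all tested genes. The median log2 was 0.09, with 41 positive and 22 negative. Group ranges did not overlap for 7 genes with Smad7-/- higher, against 4.97% of all tested genes, and for 1 with Smad7-/- lower, against 3.91%. Those higher were Nid1, Fn1, Col3a1, Col5a1, Col5a3, Plat and Tfpi2, and the lower one was Adam10. DESeq2 called Nid1, a basement membrane linker that MMPs and ADAMTS1 cleave. Nid1 had 347, 245 and 319 CPM in wild-type libraries 1, 2 and 3 and 416, 414 and 509 CPM in Smad7-/-, with no overlap (DESeq2 log2 0.55 ± 0.15 SE, adjusted p = 0.0484; edgeR adjusted p = 0.608). Fn1, fibronectin, stood at 489 ± 33.9 and 625 ± 127 CPM (log2 0.36 ± 0.14 SE; edgeR adjusted p = 0.877). Of the 14 tested proteoglycan and glycoprotein substrates 3 had an unadjusted p under 0.05 in edgeR, all higher (3.26% of all tested genes), the other being the proteoglycan gene Bgn.

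Of the 9 fibrillar collagen substrates, 2 had an unadjusted p under 0.05 in edgeR, both higher (3.26% of all tested genes). Col3a1, the chain of type III collagen, had 1289, 1155 and 1594 CPM in wild type and 1621, 1691 and 2228 in Smad7-/- (log2 0.46 ± 0.16 SE; edgeR adjusted p = 0.827). Col5a1, which limits fibril width, stood at 433 ± 15.8 and 517 ± 26.9 CPM (log2 0.26 ± 0.09 SE; edgeR adjusted p = 0.827). The abundant chains Col1a1 and Col1a2 stood at 0.09 ± 0.18 and 0.09 ± 0.19. Among 7 ADAMTS-like genes, 1 was higher and 1 lower at an unadjusted p under 0.05 in edgeR (3.26% and 1.88% of all tested genes). Papln, papilin, a matrix protein that resembles ADAMTS proteases without their catalytic part, stood at 583 ± 51.8 and 484 ± 38.4 CPM (log2 -0.27 ± 0.10 SE; edgeR adjusted p = 0.873), and its groups overlapped. The low gene Adamtsl3 stood at 0.969 ± 0.560 and 2.10 ± 0.984 CPM (log2 1.11 ± 0.49 SE; edgeR adjusted p = 0.963).

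None of the membrane-anchored ADAMs (10 tested), astacin proteases and enhancers (5), activators of the convertase and plasminogen systems (11) or MMP inhibitors and inducers (7) had an unadjusted p under 0.05 in edgeR, DESeq2 or limma-voom. The sheddase gene Adam10 stood at 468 ± 27.6 and 414 ± 11.8 CPM with no overlap between groups (log2 -0.18 ± 0.09 SE), as 3.91% of all tested genes did on the lower side. Plat, the tissue plasminogen activator gene, and Tfpi2, a protease inhibitor gene, did not overlap on the higher side (4.97% of all tested genes). Plat averaged 26.9 ± 1.97 and 30.6 ± 0.140 CPM and Tfpi2 1.604 ± 0.188 and 2.09 ± 0.116. Pcolce, the most abundant of the astacin list, which enhances the procollagen C-proteinase Bmp1, stood at a log2 of 0.13 ± 0.15 SE, Bmp1 itself at 0.05 ± 0.09, and Furin, the convertase that activates membrane-type MMPs, at 0.06 ± 0.16. Bsg, an inducer of MMP production, stood at -0.11 ± 0.11. Reck, a membrane-anchored MMP inhibitor, stood at 0.09 ± 0.18.

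**Figure D5:**
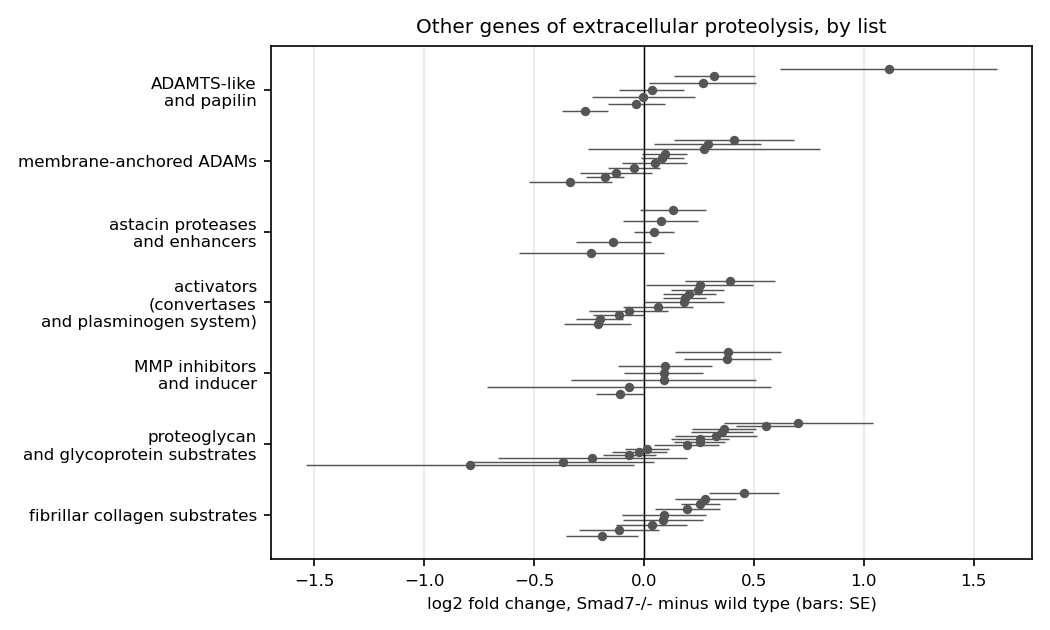
Log2 fold change (Smad7-/- minus wild type, points) with SE (bars) for the 63 tested genes of the 7 lists of other extracellular proteolysis genes, 1 row per list. Most points lie within 0.5 of 0. Nid1 stands at 0.56, and the widest bar belongs to Comp, a low gene.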

How the data were processed

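Each library has 1 deposited table of unnormalized counts, listed by gene symbol. Per the submitters' processing notes the authors used HISAT2, featureCounts, DESeq2 and the mm10 build, without versions. Counting settings are not given in the sources used here. The 6 libraries, 3 per group, were fitted with edgeR 4.0.16 in R 4.3.3 (filterByExpr with a minimum count of 10 and minimum total of 15, TMM, robust quasi-likelihood test, Benjamini-Hochberg over 15284 genes, threshold 0.05), with no covariate. TMM factors ran from 0.984 to 1.02. Alternatives used DESeq2 1.42.0, limma-voom (limma 3.58.1), other scalings and filters, covariates, and the fit without each library. Positions and exon lengths came from GENCODE M21 (mm10). No molecular identifiers were counted. The floor of 3 counts covers counting error only, while the 95% intervals come from the edgeR fit and include the estimated spread between libraries.

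The members, lists and tests were chosen with earlier results of these data known. Values in every library are given for members with an unadjusted p under 0.05, with CPM that do not overlap between groups, or with the highest per-kb level of their subfamily, and for some others, pathway genes included, added after their values were seen. Scripts were tested on simulated data. Figures were drawn with matplotlib 3.10.9.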

Additional observations from a re-analysis of the deposited data

How the results depend on the processing

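Under all 17 alternatives 0 members were called, by DESeq2 and limma-voom as by edgeR. The count of all genes called went from 4 to 59 with DESeq2 and to 2 among genes averaging 5 CPM or more, and without 1 library it ran from 1 to 7 (2, 1 and 7 without Smad7-/- library 1, 2 and 3). The replicate block left 4 genes and 0 members called. At an unadjusted p under 0.05 in edgeR it had 1210 genes and 4 members, against 786 and 3 in the main fit. With the block the SE of Mmp13 went from 0.36 to 0.15 and that of Adamts5 from 0.18 to 0.093. Those of Mmp14 and Timp2 went from 0.092 to 0.096 and from 0.089 to 0.092. Residuals of same-numbered libraries correlated at 0.169, -0.0339 and 0.0927, so the numbers were not taken as pairs, and the best match was the library's own number in wild-type libraries 1 and 3 and not in 2. The median log2 of members was 0.22 within the first set of libraries. With sex, read from Xist above 10 CPM, as a covariate it was 0.071 and 0 members were called. Of 583 member fold changes under the alternatives 53 had the other sign than in the report, from 21 members, and 14 members had 1 sign throughout. Adamts9 stood at 0.0010 with limma-voom, 0.0072 with library totals, 6.5e-04 among genes averaging 5 CPM or more and 4.8e-04 with the replicate block, and Adamts14 at 0.025 with limma-voom and 0.0045 with the replicate block. With the set as a covariate Mmp8 stood at 0.049, Mmp23 at 0.079, Adamts9 at 0.084, Adamts14 at 0.16, Adamts6 at 0.095, Adamts10 at 0.060 and Timp1 at 0.042. Without 1 library the log2 fold change ran from -0.30 to 0.46 for Mmp1a, -0.52 to 0.094 for Mmp8, -0.18 to 0.44 for Mmp13, -0.081 to 0.17 for Mmp2, -0.010 to 0.067 for Mmp14, -0.13 to 0.038 for Mmp15, -0.21 to 0.31 for Mmp16, -0.093 to 0.14 for Mmp25, -0.41 to 0.084 for Mmp23, -0.016 to 0.25 for Adamts1, -0.17 to 0.23 for Adamts4, -0.11 to 0.13 for Adamts9, -0.013 to 0.19 for Adamts2, -0.031 to 0.16 for Adamts3, -0.26 to 0.21 for Adamts14, -0.17 to 0.11 for Adamts10, -0.0079 to 0.40 for Adamts12, -0.19 to 0.22 for Adamts16, -0.060 to 0.28 for Adamts18 and -0.24 to 0.096 for Timp1. With the longest transcript as length, an alternative chosen after seeing the data, the per-kb levels were 172 for Mmp14, 30.3 for Adamts17, 40.9 for Timp3, 14.6 for Adamts2, 16.6 for Adamts9, 10.7 for Mmp11 and 8.32 for Mmp23. The cause of these shifts was not tested, beyond fewer samples or genes where libraries or low genes were left out.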
